A study of Mus musculus with 12 samples.

Results

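Pparg, Cebpa, Adipoq, Fabp4, Lpl, Dgat2, Plin1, Plin4, Cidec and Ucp1 are 10 genes that mark the making of a fat cell and the filling of its lipid store. They were chosen by name, as regulators and lipid storage genes of the adipocyte, and taken by Ensembl identifier from the 39179 gene identifiers counted in each library. All 10 were found, and all 10 passed the filter on low counts that left 17967 genes for testing.

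The libraries were made from the calvaria, the bony roof of the skull, of C57BL/6 mouse embryos on embryonic day 17.5. WT and Runx2+/- embryos were compared, each from dams given vehicle or MS-275, also called entinostat, which blocks histone deacetylases of class I. There were 4 groups of 3 libraries. The labels give the age of the parents at mating as 8 weeks and say that the dams received 2 intraperitoneal injections of MS-275 at 10 mg/kg, on days 14.5 and 16.5 after conception. The embryos were exposed through the dam, heterozygotes kept 1 intact copy of Runx2 (the transcription factor that directs osteoblast formation), and the labels give neither the deleted part nor the litters.

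Fat cells arise from the same mesenchymal progenitors as osteoblasts. In their formation PPARγ, a nuclear receptor that binds DNA with RXR, and C/EBPα switch on each other and then the genes of the mature cell. Lipoprotein lipase frees fatty acids from circulating triglyceride, FABP4 carries them inside the cell, and DGAT2 joins the last acyl chain onto diacylglycerol. Perilipins coat the resulting droplet, CIDEC fuses small droplets into large ones, adiponectin is the hormone the mature cell secretes, and UCP1 is the proton carrier of brown fat that turns fuel into heat.

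Sequence just upstream of 4 of the genes is shown because these 4 stand for the patterns that follow: a regulator that was lower with MS-275, a regulator that did not pass the test, and products of white and brown fat cells that were abundant in few libraries. Each run holds the 250 bases before a RefSeq start site (GRCm38.p6), 5′ to 3′ on the gene's plus strand. Capitals mark matches, on either strand, to CCAAT, to the nuclear receptor half-site AGGTCA or to TATAAA. The regions are chr7:35119043-35119292 for Cebpa, chr6:115421816-115422065 for the most downstream listed start of Pparg, chr16:23146286-23146535 for Adipoq and chr8:83290098-83290347 for Ucp1.
Cebpa: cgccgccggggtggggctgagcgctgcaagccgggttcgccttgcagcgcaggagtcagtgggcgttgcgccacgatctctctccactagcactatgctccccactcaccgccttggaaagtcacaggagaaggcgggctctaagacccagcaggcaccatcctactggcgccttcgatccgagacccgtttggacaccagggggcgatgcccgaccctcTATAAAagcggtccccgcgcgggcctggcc
Pparg: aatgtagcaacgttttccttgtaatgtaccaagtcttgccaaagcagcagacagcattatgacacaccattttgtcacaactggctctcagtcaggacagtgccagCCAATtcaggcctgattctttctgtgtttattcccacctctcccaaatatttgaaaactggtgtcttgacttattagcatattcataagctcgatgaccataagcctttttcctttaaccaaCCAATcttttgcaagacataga
Adipoq: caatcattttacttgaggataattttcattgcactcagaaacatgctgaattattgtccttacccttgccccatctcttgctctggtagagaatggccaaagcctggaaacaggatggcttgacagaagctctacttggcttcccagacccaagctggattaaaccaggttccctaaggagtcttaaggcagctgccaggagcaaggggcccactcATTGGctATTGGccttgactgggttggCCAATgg
Ucp1: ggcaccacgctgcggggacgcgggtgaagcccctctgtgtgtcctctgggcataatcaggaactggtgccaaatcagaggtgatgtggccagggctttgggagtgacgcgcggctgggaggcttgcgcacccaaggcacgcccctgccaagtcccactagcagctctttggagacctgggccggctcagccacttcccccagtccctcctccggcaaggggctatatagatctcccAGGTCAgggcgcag

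The Cebpa window held 1 TATAAA match, 30 to 25 bases before the start, and the Pparg window held 2 CCAAT matches. Adipoq held 3 CCAAT matches, 1 of them on its own strand and 2 on the other, and Ucp1 held AGGTCA 14 to 9 bases before its start. Among all 32817 windows of the same kind, 33.8% held CCAAT, 14.0% AGGTCA and 12.4% TATAAA, so each of these letters is common. The direct repeat that PPARγ and RXR bind, 2 copies of AGGTCA with 1 base between them, was in 0.0335% of all windows, and in 0.338% with the fourth base of each copy free. The C/EBP core TTGCGCAA was in 0.165%. None of these longer strings lay in the 10 windows found for 7 of the 10 genes. For Fabp4, Lpl and Dgat2 no window was used.

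Reads counted in genes numbered 13307456 to 19399760 per library. On the first principal component of log2 CPM, which held 72.5% of the variance, the library labelled Runx2+/- MS-275 replicate 3 lay at -106, beside vehicle libraries at -92.7 to -122, and the other 5 MS-275 libraries at 83.9 to 140. WT vehicle replicate 3 (5.51) and Runx2+/- vehicle replicate 3 (-14.5) also stood apart from the rest of their groups. Scaling factors (trimmed mean of M values, TMM) were 0.598 to 0.820 in those 5 MS-275 libraries and 1.18 to 1.33 in the other 7. Runx2 itself averaged 44.7 ± 1.97 CPM (SD, n = 3) in vehicle WT libraries and 52.0 ± 17.1 CPM in vehicle heterozygotes, with an edgeR adjusted p of 1.00, so its level did not separate the genotypes. Because 1 library labelled MS-275 lies among the vehicle libraries, results of the 10 genes that rest on it are given with and without it.

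Cebpa, the later of the 2 regulators, fell with MS-275, while the difference of Pparg did not pass the test. Levels are in CPM (counts scaled to equal library totals) on the TMM scale, listed for replicates 1, 2 and 3 of a group in that order. Cebpa measured 15.5, 15.6 and 28.1 CPM in the WT vehicle libraries, against 14.0, 9.99 and 10.7 CPM in Runx2+/- vehicle. After MS-275 the values were 6.77, 5.40 and 5.69 CPM in WT and 3.99, 6.06 and 11.3 CPM in Runx2+/-. All 3 treated WT libraries lay below all 3 vehicle WT libraries, and in Runx2+/- only the library labelled replicate 3 reached into the vehicle range. The log2 fold change with the drug was -1.73 in WT (SE 0.38, edgeR adjusted p = 0.0434) and -0.69 in Runx2+/- (SE 0.38, edgeR adjusted p = 0.311). Averaged over genotypes it was -1.21 (SE 0.27, edgeR adjusted p = 0.0136), and without Runx2+/- MS-275 replicate 3 the value in Runx2+/- was -1.20 with an edgeR adjusted p of 0.0243. In bulk tissue, fewer cells of a type and less RNA per cell cannot be told apart, here or in any gene that follows.

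Pparg, the receptor without which no fat cell forms, measured 2.91, 12.2 and 11.5 CPM in WT given vehicle and 3.01, 2.50 and 4.08 CPM in Runx2+/- given vehicle. The treated groups gave 5.14, 10.3 and 7.16 CPM (WT) and 9.19, 5.98 and 12.5 CPM (Runx2+/-). The WT vehicle group was split, with replicate 1 at the level of the heterozygotes and the other 2 libraries at about the top of the treated ones. In Runx2+/- every treated library lay above every vehicle library. The drug difference was -0.23 in WT (SE 0.51, edgeR adjusted p = 0.723) and 1.53 in Runx2+/- (SE 0.52, edgeR adjusted p = 0.183), and neither passed. The interaction, that is the value in Runx2+/- less the value in WT, was 1.76 (SE 0.72) with an edgeR adjusted p of 0.873.

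**Figure D1:**
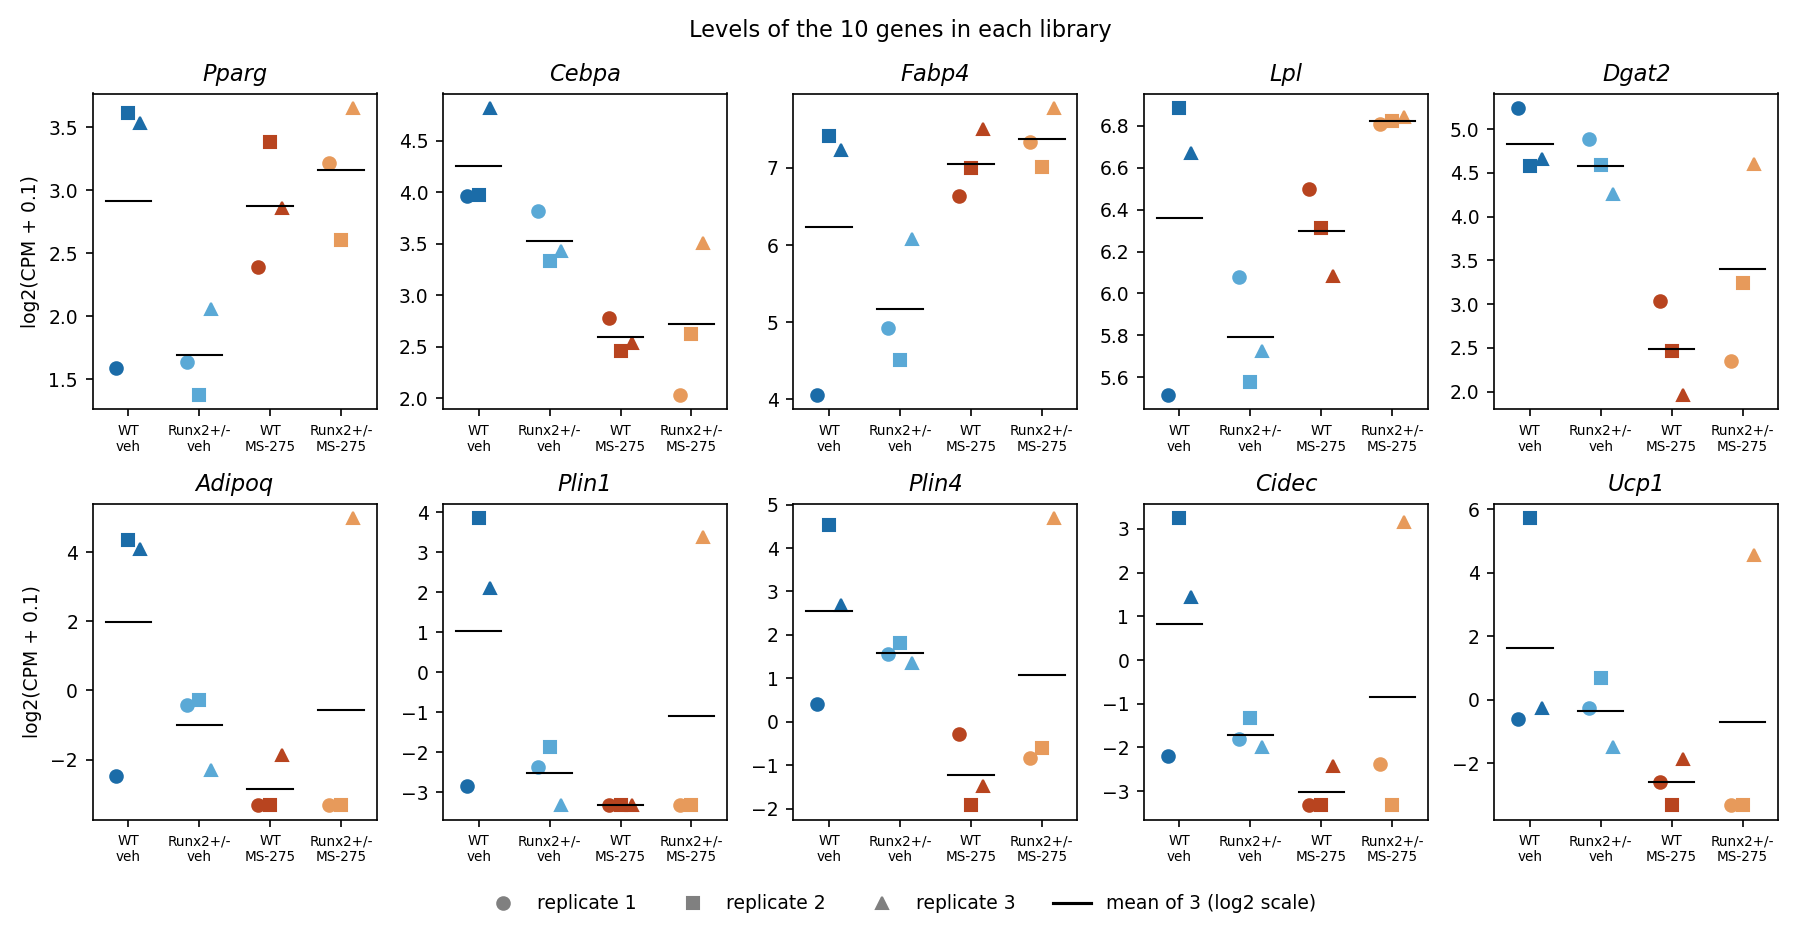
Level of each of the 10 genes in each of the 12 libraries, as log2(CPM + 0.1) on the vertical axis, by group (WT and Runx2+/-, vehicle, veh, or MS-275). Points are libraries (shapes give the replicate number), lines are means of 3 on the log2 scale, and each panel has its own axis. Adipoq, Plin1, Plin4 and Cidec stand high in WT vehicle replicates 2 and 3 and in Runx2+/- MS-275 replicate 3, while Cebpa and Dgat2 sit lower in the other MS-275 libraries than in all vehicle libraries.

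Fabp4 and Lpl, which handle fatty acids at entry, followed Pparg rather than Cebpa over the libraries. Fabp4 measured 16.6, 171 and 151 CPM in vehicle WT libraries and 30.2, 22.7 and 67.2 CPM in vehicle heterozygotes. Under MS-275, WT libraries held 99.5, 128 and 182 CPM and Runx2+/- libraries 161, 129 and 219 CPM. WT vehicle replicate 1 was the lowest of all 12 libraries, and in Runx2+/- the treated libraries again lay wholly above the vehicle ones. The drug difference was 0.28 in WT (SE 0.68, edgeR adjusted p = 0.753) and 2.08 in Runx2+/- (SE 0.71, edgeR adjusted p = 0.183). Averaged over genotypes it was 1.18 (SE 0.49), with an edgeR adjusted p of 0.0731 that did not pass.

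Lpl, the lipase of the capillary wall, measured 45.6, 118 and 102 CPM in the WT vehicle libraries, against 67.5, 47.6 and 52.7 CPM in Runx2+/- vehicle. MS-275 libraries stood at 90.4, 79.3 and 67.8 CPM in WT and at 112, 113 and 115 CPM in Runx2+/-. Its range was the narrowest of the 10 genes, with the highest library 2.59-fold above the lowest, against 13.3-fold for Fabp4 and 5.00-fold for Pparg. The treated heterozygotes lay close together, above all vehicle heterozygotes, and above all treated WT libraries. The drug difference was -0.16 in WT (SE 0.30, edgeR adjusted p = 0.671) and 1.02 in Runx2+/- (SE 0.30, edgeR adjusted p = 0.181), and without Runx2+/- MS-275 replicate 3 the latter was 1.01 with an edgeR adjusted p of 0.0438. Without that library the values in Runx2+/- were 1.86 for Fabp4 (edgeR adjusted p = 0.0832) and 1.25 for Pparg (edgeR adjusted p = 0.101).

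Over the 12 libraries, Pearson's r of log2 CPM was 0.914 between Pparg and Fabp4, 0.824 between Pparg and Lpl and 0.829 between Fabp4 and Lpl. Between Pparg and Cebpa it was -0.06, and between Cebpa and Dgat2 0.868. Fabp4 and Lpl thus tracked Pparg, and Dgat2 tracked Cebpa. Adipoq, Plin1, Plin4, Cidec and Ucp1 tracked each other, at 0.877 to 0.985. Their values were lower with Pparg (0.208 to 0.575) and with Cebpa (0.583 to 0.726). All these values describe libraries that share groups and scaling.

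Dgat2, the enzyme that completes triglyceride, was lower with MS-275 as Cebpa was. It measured 37.8, 23.8 and 25.2 CPM in WT given vehicle and 29.4, 24.0 and 19.1 CPM in Runx2+/- given vehicle. After MS-275 the values were 8.07, 5.40 and 3.80 CPM in WT and 5.02, 9.33 and 24.2 CPM in Runx2+/-. The highest treated WT library was below the lowest vehicle library of either genotype, and the exception among the treated heterozygotes was again the library labelled replicate 3. The drug difference was -2.32 in WT (SE 0.52, edgeR adjusted p = 0.0434) and -0.90 in Runx2+/- (SE 0.50, edgeR adjusted p = 0.319), or -1.75 without that library (edgeR adjusted p = 0.0120). Averaged over genotypes Dgat2 fell by 1.61 on the log2 scale (SE 0.36, edgeR adjusted p = 0.0136).

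Adipoq, Plin1, Plin4 and Cidec, which mark the mature lipid-filled cell, were concentrated in 3 libraries that do not belong to 1 group. Adipoq, the adiponectin gene, measured 0.0798, 20.5 and 16.9 CPM in vehicle WT libraries and 0.647, 0.732 and 0.102 CPM in vehicle heterozygotes. The treated groups gave 0, 0 and 0.173 CPM (WT) and 0, 0 and 31.7 CPM (Runx2+/-). WT vehicle replicates 2 and 3 and the library labelled Runx2+/- MS-275 replicate 3 held 97.5% of its 1462 counts, and WT vehicle replicate 1 held 2 counts. The group means therefore rest on whether a group holds such a library.

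Plin1, the perilipin of white fat droplets, measured 0.0399, 14.4 and 4.20 CPM in the WT vehicle libraries, against 0.0925, 0.172 and 0 CPM in Runx2+/- vehicle. With MS-275 it had no count in 5 libraries and measured 10.3 CPM in the library labelled Runx2+/- MS-275 replicate 3. The limit that a count of 0 allows, 3 counts, is 0.195 to 0.279 CPM in those 5 libraries. This floor, and every counting interval given, covers counting error only.

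Cidec, the droplet fusion protein of white fat, measured 0.120, 9.40 and 2.62 CPM in WT given vehicle and 0.185, 0.301 and 0.153 CPM in Runx2+/- given vehicle. Under MS-275, WT libraries held 0, 0 and 0.0863 CPM and Runx2+/- libraries 0.0929, 0 and 8.84 CPM. The same 3 libraries held 98.8% of the Plin1 counts and 95.7% of the Cidec counts.

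Plin4, a perilipin that coats small new droplets, was less concentrated. It measured 1.24, 23.0 and 6.38 CPM in vehicle WT libraries and 2.87, 3.40 and 2.45 CPM in vehicle heterozygotes. MS-275 libraries stood at 0.716, 0.164 and 0.259 CPM in WT and at 0.464, 0.558 and 25.7 CPM in Runx2+/-. The 3 libraries held 81.8% of its counts, and the vehicle heterozygotes were all above the treated WT libraries.

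In WT, summed counts per summed scaled depth were 218-fold lower with MS-275 for Adipoq (95% exact interval 60.2 to 1806), on 2 against 698 counts. They were 137-fold lower for Cidec (24.3 to 5433, on 1 count with MS-275) and 21.8-fold lower for Plin4 (13.3 to 38.4). Plin1 had no count with MS-275 in WT, and its mean vehicle level was 26.6-fold above the mean floor of 3 counts. That limit is taken from means of libraries, so it is not comparable with the ratios of summed counts. The intervals hold the counts alone and not the spread between libraries. With that spread in the fit, edgeR adjusted p was 0.0676 for Adipoq, 0.0744 for Plin1, 0.0598 for Cidec and 0.0579 for Plin4, and none of the 4 passed. In Runx2+/- the fitted drug differences were above 0 for all 4 genes, with edgeR adjusted p of 0.257 to 0.508, and all 4 turned negative without the library labelled replicate 3. Plin1 then rested on 0 against 6 counts, too few to show a fall. Without that library Adipoq had no count with MS-275, and its mean vehicle level was 1.91-fold above the mean floor of 3 counts. By summed counts Plin4 was 5.69-fold lower (3.18 to 11.2) and Cidec 5.06-fold lower with an interval that includes no difference (0.770 to 214).

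Ucp1 was abundant in only some of the libraries that were rich in Adipoq. It measured 0.558, 52.6 and 0.742 CPM in the WT vehicle libraries, against 0.740, 1.51 and 0.255 CPM in Runx2+/- vehicle. After MS-275 the values were 0.0651, 0 and 0.173 CPM in WT and 0, 0 and 23.4 CPM in Runx2+/-. WT vehicle replicate 2 alone held 912 of its 1537 counts, and the library labelled Runx2+/- MS-275 replicate 3 held 537. WT vehicle replicate 3, with 341 counts of Adipoq, held 15 of Ucp1.

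Of the counts of both genes together, Ucp1 made up 72.0% in WT vehicle replicate 2 (95% exact Clopper-Pearson interval 69.4% to 74.4%). It made up 4.21% in WT vehicle replicate 3 (2.38% to 6.85%) and 42.4% in Runx2+/- MS-275 replicate 3 (39.7% to 45.2%). These intervals, which hold counting error alone and not the spread between libraries of a group, do not overlap. Brown fat cells also express Adipoq, so the value is a ratio of the counts and not a share of cells. In the vehicle libraries with few counts of Adipoq the share was 53.3% to 87.5%, on 7 to 52 counts. The drug difference of Ucp1 in WT was a 196-fold lower level by counts (66.9 to 953, on 3 against 941 counts), and with the spread between libraries the edgeR adjusted p was 0.0672. Without WT vehicle replicate 2 the fitted log2 value moved from -7.73 to -2.96, with an edgeR adjusted p of 0.382.

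**Figure D2:**
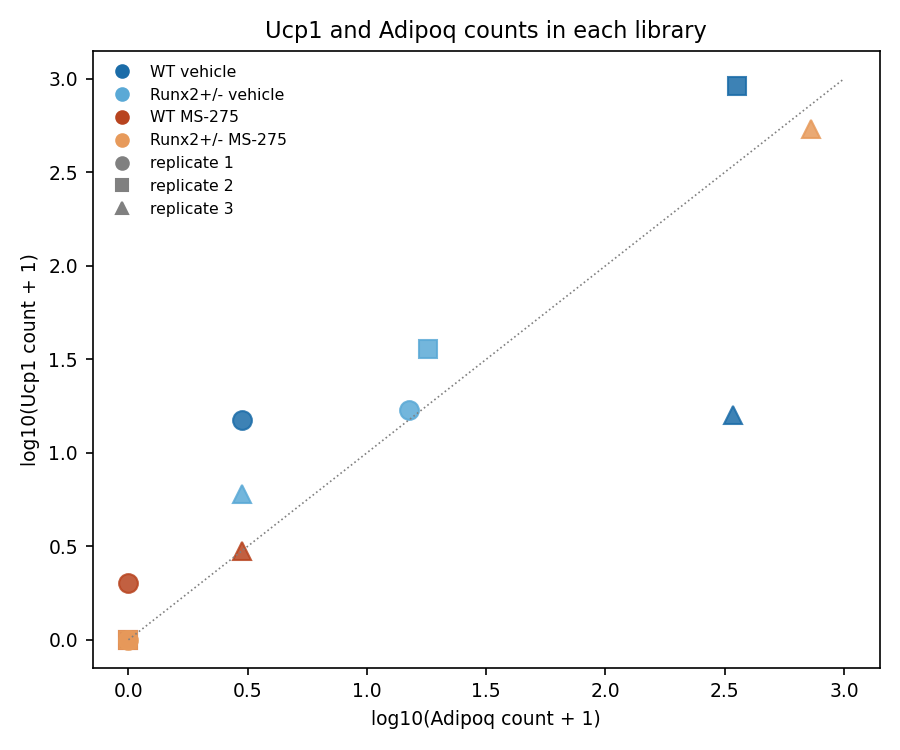
Ucp1 counts against Adipoq counts in each library, both as log10(count + 1). Each point is a library, the dotted line marks equal counts, and 3 MS-275 libraries lie on top of each other at 0 counts of both genes. WT vehicle replicate 2 and Runx2+/- MS-275 replicate 3 hold 355 counts or more of both genes, while WT vehicle replicate 3 holds 341 counts of Adipoq and 15 of Ucp1.

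Counted together for the drug in WT, 2 of the 10 genes fell (Cebpa and Dgat2), none rose and 8 did not pass. Over all genes tested in that comparison, 19.0% passed in either direction and 9.33% were lower, so 2 of 10 is near the background. The groups did not overlap for 6 of the 10 genes (Cebpa, Dgat2, Plin1, Plin4, Cidec and Ucp1, all lower with the drug), beside 54.8% of all genes. The median log2 fold change of the 10 was -3.50, beside -0.13 over all genes. Without the library labelled Runx2+/- MS-275 replicate 3, 7 of the 10 passed and all 7 were lower, while 8480 of 18216 genes passed in all. That library is in neither WT group and enters this comparison through the shared filter, scaling and estimate of the spread. The call on Cebpa and Dgat2 in WT was close to the threshold: each passed in 9 of 20 alternative fits.

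For the drug averaged over genotypes, the same 2 genes passed and both were lower, against 39.1% of all genes in either direction and 18.0% lower. Cebpa and Dgat2 passed here in all 20 alternative fits. In Runx2+/- none of the 10 passed, and 0.0% of all genes did by edgeR, though 3782 genes had an unadjusted p under 0.05. DESeq2 called 1280 genes there, with Pparg, Fabp4 and Lpl among them and higher, and limma-voom called 0. The groups did not overlap for those same 3 genes, all higher with the drug, beside 14.9% of all genes.

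**Figure D3:**
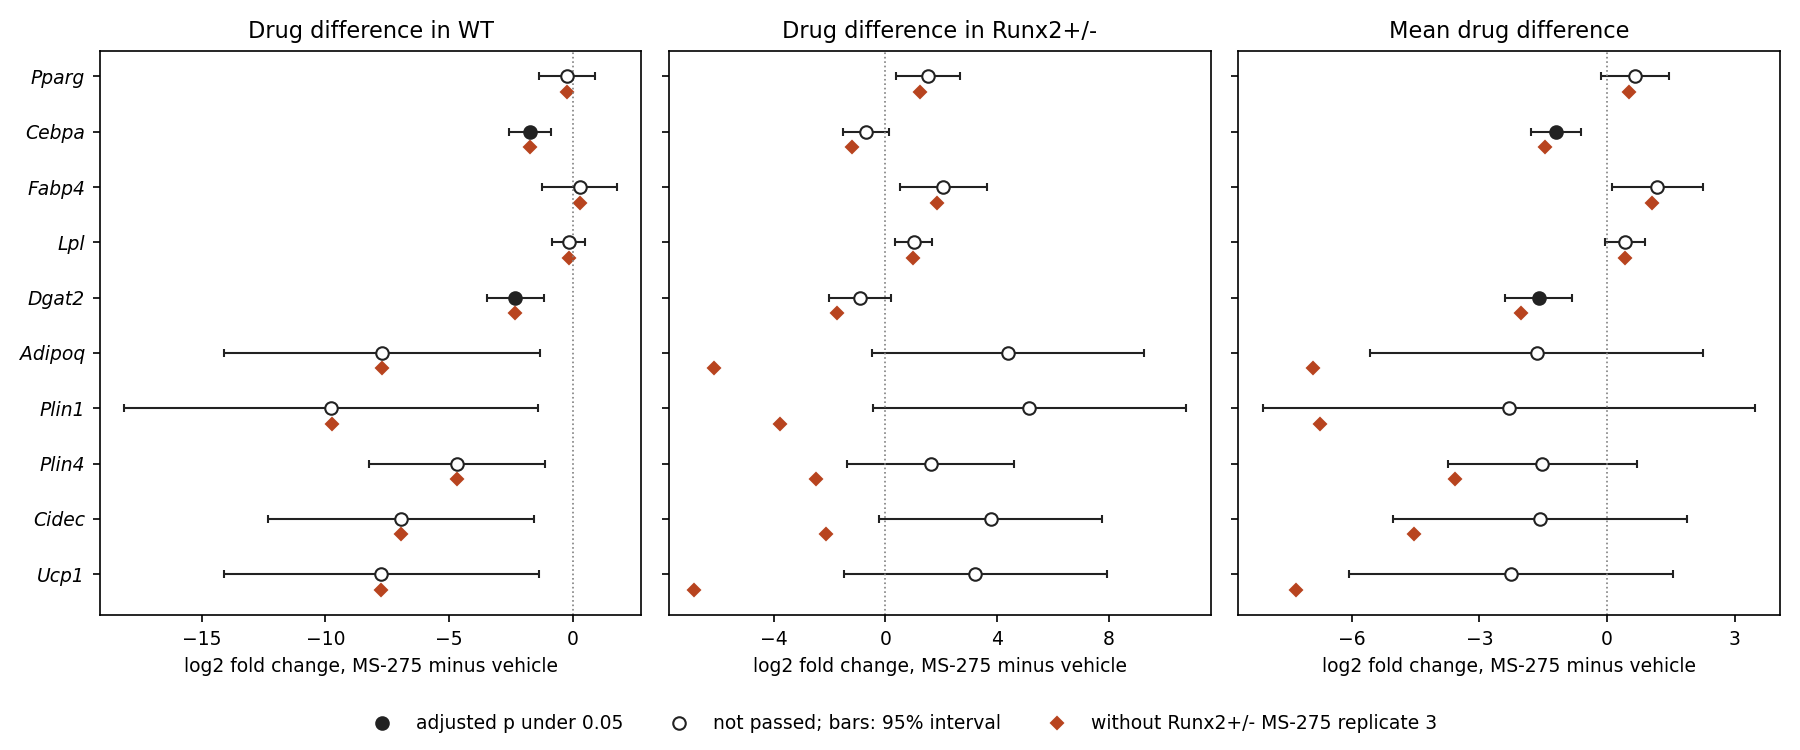
Log2 fold change with MS-275 (horizontal axis, MS-275 minus vehicle) for each of the 10 genes in WT, in Runx2+/- and averaged over both. Circles are the edgeR estimates with 95% intervals, filled where the adjusted p is under 0.05, diamonds are estimates without Runx2+/- MS-275 replicate 3, and each panel has its own axis. Cebpa and Dgat2 are filled in WT and in the mean, and for Adipoq, Plin1, Plin4, Cidec and Ucp1 the diamond lies on the other side of 0 from the circle in Runx2+/-.

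Between the genotypes with vehicle, none of the 10 genes passed, and 0.0% of all genes did by edgeR, where 55 genes lay below 0.05 before adjustment and neither DESeq2 nor limma-voom called any (0 each). All 10 fitted values were below 0, with a median of -1.65 beside -0.01 over all genes. Pparg stood at -1.47 (SE 0.52), Fabp4 at -1.49 (SE 0.69) and Adipoq at -4.62 (SE 2.22), each with an edgeR adjusted p of 1.00. The groups did not overlap for Cebpa alone, beside 4.78% of all genes. WT vehicle replicate 1 lay at or below the vehicle heterozygotes in Adipoq, Fabp4, Lpl, Plin4 and Cidec, so the higher WT level of these 5 genes was carried by WT vehicle replicates 2 and 3. Without WT vehicle replicate 2 the value of Ucp1 changed sign, to 0.37. Same-numbered vehicle libraries of the genotypes deviated together, but so did WT vehicle replicate 1 and Runx2+/- vehicle replicate 2 (r = 0.679). With the replicate number as a block in the vehicle libraries alone, all 10 values were again below 0. There edgeR called 0 genes, and its adjusted p was 0.919 for each of the 10.

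Between the genotypes with MS-275, none of the 10 passed, and 0.0% of all genes did by edgeR, where 2832 genes had an unadjusted p under 0.05, DESeq2 called 702 and limma-voom 0. All 10 fitted values were above 0, with a median of 2.83 beside 0.05 over all genes, and this shift rested on the library labelled Runx2+/- MS-275 replicate 3. Without it Adipoq, Plin1, Cidec and Ucp1 had 3 counts or fewer in every remaining MS-275 library, and the other 6 genes had values of -0.24 to 0.51 with a median of 0.20. Lpl was the only gene of the 10 whose groups did not overlap, at 112 to 115 CPM against 67.8 to 90.4 CPM, beside 16.7% of all genes. Its log2 difference was 0.52 (SE 0.30, edgeR adjusted p = 0.404). For the interaction, none of the 10 passed and 0.0% of all genes did by edgeR, with 953 genes at an unadjusted p under 0.05, 38 called by DESeq2 and 0 by limma-voom. The 10 interaction values were above 0 with a median of 4.06, and 7 had an unadjusted p under 0.05. Without the library labelled Runx2+/- MS-275 replicate 3 the 10 values were above 0, but the median was 1.53 and 1 of the 10 had such a p. For Adipoq, Plin1, Cidec and Ucp1 these values rest on 3 counts or fewer in every remaining MS-275 library. Their signs therefore cannot be told apart from the genotype difference with vehicle. For Plin1 the interaction in that fit was 5.97 and the genotype difference with vehicle -5.97. The comparisons share libraries, so these counts do not stand independently of each other.

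Per kilobase of exon, Fabp4 ranked first of the 10 in every group, from 8.92 ± 5.31 CPM per kb (SD, n = 3) in Runx2+/- vehicle to 37.8 ± 10.2 in Runx2+/- MS-275. The annotated exons of Fabp4 cover its whole gene body (4489 bases), so this level is a low estimate. In both MS-275 groups it lay above the next gene, Lpl, in every library, while in the vehicle groups it overlapped its neighbour. Plin1 ranked last in every group. The order between these ends shifted with the groups: in WT MS-275, Lpl (7.56 ± 1.08 CPM per kb), Pparg (2.55 ± 0.883), Cebpa (2.26 ± 0.273) and Dgat2 (1.87 ± 0.701) followed Fabp4. Pparg and Cebpa, and Cebpa and Dgat2, overlapped there. The remaining 5 genes averaged 0.0657 CPM per kb or less in WT MS-275, and Dgat2 lay above Plin4, the highest of them, in every library. In both vehicle groups Cebpa lay above Pparg in every library. The levels were 7.49 ± 2.76 against 3.00 ± 1.75 CPM per kb in WT vehicle. In Runx2+/- vehicle they were 4.38 ± 0.818 against 1.08 ± 0.273.

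Summed white fat markers were highest in the libraries rich in Adipoq. Summed brown fat markers were highest in WT vehicle replicate 2 and Runx2+/- MS-275 replicate 3, but not in WT vehicle replicate 3. Not every gene followed its sum. The 6 further white fat markers (Lipe, Cfd, Retn, Lep, Pnpla2 and Thrsp) summed to 17.8, 103 and 42.9 CPM in WT vehicle, and to 16.0 to 21.1 CPM in Runx2+/- vehicle. In WT MS-275 they summed to 11.3 to 17.8 CPM with Cfd, Retn and Lep at 0, and in Runx2+/- MS-275 to 10.7, 17.5 and 80.8 CPM. The 5 brown fat markers besides Ucp1 (Cidea, Dio2, Elovl3, Cox7a1 and Cox8b) summed to 16.6, 59.9 and 19.4 CPM in WT vehicle and to 57.3 CPM in Runx2+/- MS-275 replicate 3, with 9.01 to 23.0 CPM in the other 8 libraries. Of these sums Cidea, a droplet protein of brown fat singled out after its values were seen, made up 30.6 CPM in WT vehicle replicate 2. It made up 27.9 CPM in Runx2+/- MS-275 replicate 3 and 0.815 to 4.80 CPM in the other 10. Dio2 and Cox7a1 were also highest in these libraries, but Cox8b and Elovl3 were not. Cox8b was higher in Runx2+/- MS-275 replicates 1 and 2 (10.7 and 8.94 CPM) than in replicate 3 (7.14 CPM). Elovl3 was highest in Runx2+/- vehicle replicate 1 (3.79 CPM), with 1.10 CPM in WT vehicle replicate 2. Dlk1, the usual preadipocyte marker, was listed at 0 in all 12 libraries. The other 4 preadipocyte markers summed to 296 to 538 CPM in WT vehicle and 642 to 771 CPM in WT MS-275, and to 303 to 480 CPM in Runx2+/- vehicle and 758, 831 and 280 CPM in Runx2+/- MS-275. They did not move together: in the mean drug difference Pdgfra and Cd34 rose, while Ebf2 and Zfp423 fell.

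Markers of bone and of other tissues moved with the drug as well. The 5 osteoblast genes, those of the sampled tissue itself, summed to 5372 to 7535 CPM in WT vehicle and 25863 to 36757 CPM in WT MS-275. In Runx2+/- they summed to 3595 to 11380 CPM with vehicle and to 31638, 16594 and 1534 CPM with MS-275. Of the 5, Sp7, Bglap, Ibsp and Alpl rose with the drug in WT and in the mean. The 6 epidermal genes summed to 1249 to 3906 CPM in vehicle WT libraries and 1098 to 2616 CPM in vehicle heterozygotes. They summed to 11.3 to 13.7 CPM in WT MS-275 and to 7.34, 16.0 and 1618 CPM in Runx2+/- MS-275, with all 6 genes counted in every group. All 6 fell with the drug in WT and in the mean. Cebpa and Dgat2 were likewise lowest in the 5 MS-275 libraries other than the library labelled Runx2+/- MS-275 replicate 3. Whether epidermal cells had a part in the fall of Cebpa and Dgat2 was not tested. Lens genes, 5 in the list, summed to 865, 795 and 6.13 CPM in WT vehicle, to 616, 762 and 8.92 CPM in Runx2+/- vehicle, to 1.31 CPM or less in WT MS-275 with Lim2 at 0, and to 0.279, 0.160 and 635 CPM in Runx2+/- MS-275. WT vehicle replicate 3 was rich in Adipoq and poor in lens genes, and WT vehicle replicate 1 the reverse.

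The 5 macrophage genes summed to 130 to 323 CPM in WT vehicle and 629 to 749 CPM in WT MS-275, and to 890, 702 and 110 CPM in Runx2+/- MS-275. The 5 endothelial genes summed to 244 to 353 CPM in WT vehicle and 389 to 646 CPM in WT MS-275, and to 604, 542 and 198 CPM in Runx2+/- MS-275. Macrophages and capillary endothelium express some of the genes that tracked Pparg, such as Fabp4 and Lpl. The 5 sebocyte genes summed to 1.82 to 8.19 CPM over the 12 libraries, and the 5 skeletal muscle genes to 1582 to 2769 CPM in WT vehicle and 115 to 1046 CPM in WT MS-275. In Runx2+/- the muscle sums with MS-275, 1416 to 1805 CPM, lay within the vehicle range of 720 to 2597 CPM. The part of these tissues in the differences of the 10 genes was not tested.

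A wider list of 72 adipocyte and lipid genes in 9 roles, 69 of them tested, showed both directions. Averaged over genotypes, 7 rose with MS-275, 13 fell and 49 did not pass, with a median log2 fold change of -0.28 beside -0.10 over all genes. That is 20 of 69 beside the 39.1% of all genes. Under scaling by library size alone, which shifted the median of all genes in the mean drug difference to -0.74, the counts were 3 higher and 30 lower. That fit called 852 higher and 8147 lower of all 17967 genes. Without Runx2+/- MS-275 replicate 3 the counts of the wider list were 10 and 25, beside 5131 higher and 6110 lower of all 18216 genes tested.

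In fatty acid synthesis 5 of 8 genes fell and none rose in the mean, where 18.0% of all genes fell. Without Runx2+/- MS-275 replicate 3 the counts were the same, where 6110 of all 18216 genes fell. Fasn, the fatty acid synthase, fell by 1.27 on the log2 scale (SE 0.27, edgeR adjusted p = 0.0135), from 220 ± 81.5 to 84.8 ± 13.9 CPM in WT (SD, n = 3). Acaca, Acly, Scd2 and Elovl6 fell with it, by 0.45 to 0.73. In triglyceride synthesis, where 4 fell without Runx2+/- MS-275 replicate 3, 1 of 7 fell (Gpam, the first acyltransferase) and 1 rose (Agpat2, the second, at 1.06, SE 0.32).

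Of 12 genes for adipogenic transcription 4 fell and none rose, beside the same 18.0% of all genes. Without Runx2+/- MS-275 replicate 3, 5 fell and 1 rose, where 6110 of all 18216 genes fell and 5131 rose. Ebf2, which marks brown fat progenitors, measured 35.5, 35.0 and 32.2 CPM in vehicle WT libraries but 13.6, 11.4 and 8.45 CPM in WT MS-275. Its mean drug difference was -1.21 (SE 0.18, edgeR adjusted p = 0.0135). Prdm16, the brown fat coregulator, Ebf1 and Zfp423 fell by 0.91, 0.47 and 0.52. Among 6 tested inhibitors of adipogenesis, Gata2 and Gata3 fell by 1.65 and 2.02, so genes of opposite roles moved the same way.

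Droplet genes outside the 10 showed the other direction, with 4 of 9 higher and none lower in the mean, where 21.1% of all genes were higher. Without Runx2+/- MS-275 replicate 3, 4 were higher and 2 lower, beside 5131 higher and 6110 lower of all 18216 genes. Plin2, the perilipin found in most cell types, rose by 1.22 (SE 0.29, edgeR adjusted p = 0.0147), from 32.6 ± 10.4 to 75.3 ± 12.6 CPM in WT. Hilpda, Cav1 and G0s2 rose by 1.39, 1.54 and 1.14. Hilpda was also higher in WT alone (1.70, SE 0.50, edgeR adjusted p = 0.0463), whereas Plin5, the perilipin of oxidative tissue, was lower there at -3.16 (SE 0.96, edgeR adjusted p = 0.0471).

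In fatty acid uptake 2 of 6 rose, Cd36, a fatty acid receptor, by 1.45 (SE 0.29, edgeR adjusted p = 0.0135) and Gpihbp1, the capillary anchor of lipoprotein lipase, by 2.08 (SE 0.51, edgeR adjusted p = 0.0160). Acsl1, which activates fatty acids, fell by 0.99. Cd36 measured 26.1, 83.2 and 77.9 CPM in vehicle WT libraries but 82.9, 118 and 152 CPM in WT MS-275, an order of WT vehicle libraries like that of Fabp4. None of 6 lipolysis genes, 8 tested adipokine and receptor genes or 7 brown fat genes passed in the mean. Without Runx2+/- MS-275 replicate 3, 3 lipolysis genes fell, 1 adipokine or receptor gene rose, and 2 brown fat genes fell and 1 rose. Over all genes that fit called 5131 higher and 6110 lower of 18216.

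In WT alone, 1 of the 69 rose and 10 fell, or 11 of 69 beside the 19.0% of all genes (9.67% higher and 9.33% lower). The counts were 0 and 0 with a replicate block, by limma-voom and without a filter on low counts. They were 0 and 33 under scaling by library size alone, beside 526 higher and 7009 lower of all 17967 genes. Without Runx2+/- MS-275 replicate 3 they were 8 and 29, beside 4040 and 4440 of all 18216 genes. Leaving out 1 of 8 other libraries (each WT MS-275 library, WT vehicle replicates 1 and 2, Runx2+/- vehicle replicates 1 and 2 and Runx2+/- MS-275 replicate 2) also gave 0 and 0. Beside genes already named, those that passed were Gpd1 (-5.60, SE 1.76), which makes glycerol phosphate, Fabp5 (-1.19, SE 0.33) and Ppargc1a (-1.85, SE 0.57), the coactivator of mitochondrial genes, with edgeR adjusted p of 0.0440 to 0.0492. In Runx2+/-, between the genotypes and for the interaction none of the 69 passed by edgeR with all 12 libraries. Without Runx2+/- MS-275 replicate 3, edgeR called 8 higher and 7 lower with the drug in Runx2+/-, beside 3367 and 2588 of all 18216 genes. With all libraries DESeq2 called 5 higher and 4 lower there, 6 and 2 between the genotypes with MS-275, and 4 and 0 for the interaction. Over all 17967 genes DESeq2 called 857 and 423, 564 and 138, and 38 and 0 in these comparisons.

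**Figure D4:**
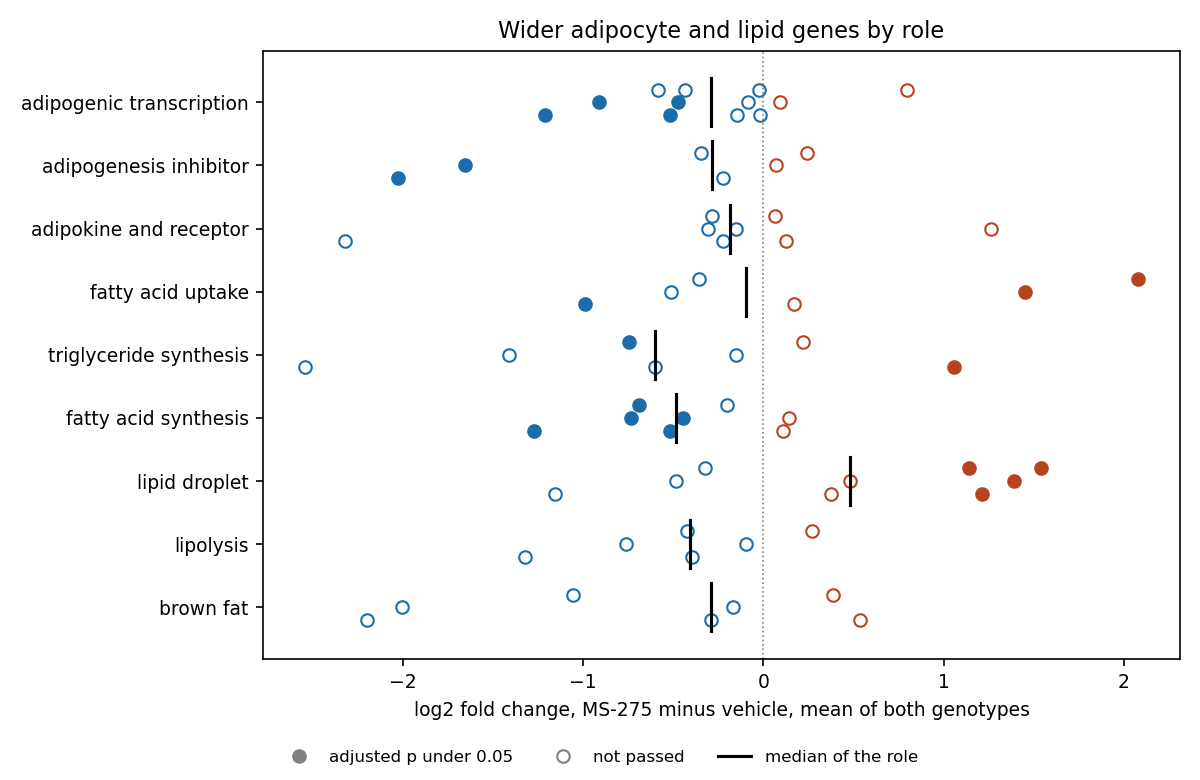
Log2 fold change with MS-275, averaged over both genotypes (horizontal axis), for the 69 tested genes of the wider list, by role. Each point is a gene, filled where the edgeR adjusted p is under 0.05, blue below 0 and red above 0, and the black line is the median of the role. Filled points lie below 0 in fatty acid synthesis and adipogenic transcription and above 0 among the lipid droplet genes.

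Among tested genes outside the 10, those whose log2 CPM over the 12 libraries was most like the mean of the 10 were Pck1 (Pearson's r = 0.989), Gpd1 (0.983), Cfd (0.983), Klb (0.959), Aqp7 (0.950) and Lipe (0.945). Mecr (0.938), Ctcflos (0.938), A530020G20Rik (0.931) and Thrsp (0.917) came next. Pck1, the enzyme that supplies glycerol phosphate from pyruvate in fat cells, measured 17.8, 2.08 and 14.1 CPM in WT vehicle replicates 2 and 3 and Runx2+/- MS-275 replicate 3, and at most 0.345 CPM in the other 9. With the 2 libraries farthest from the median left out, r was 0.968 for Pck1 and 0.663 for Thrsp. Again outside the 10, the gene most like Pparg was Mrap (0.889), and the gene most like Fabp4 was Car3 (0.957), which ran from 1314 to 13434 counts. These likenesses are descriptions over 12 libraries, and the mean of the 10 is itself led by the genes concentrated in 3 of them.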

How the data were processed

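Transcripts were counted in 12 libraries of mouse calvaria, prepared with a stranded total RNA kit per the labels' protocols. The deposited values are raw read counts per Ensembl gene, whole numbers without normalization. Per the submitters' processing notes the authors trimmed, aligned and counted reads with Trimmomatic, Bowtie2, SAMtools and HTSeq. Their versions and the strand setting are not given in the sources used here, and the build named in the notes, GRCh38.p7, is a human one although the identifiers are those of mouse genes. Symbols, positions and exon lengths came from GENCODE M21 (GRCm38) by identifier, and 37607 identifiers had a symbol. The 5 summary entries at the end of a file were left out. They put reads in no gene at 5.21% to 22.2% of uniquely aligned reads. This share differed with treatment, at 10.5% to 16.8% in the vehicle libraries. It was 22.2% in Runx2+/- MS-275 replicate 3 and 5.21% to 8.65% in the other MS-275 libraries.

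The main test was edgeR's quasi-likelihood F test with robust estimation (edgeR 4.0.16, limma 3.58.1, R 4.3.3). The filter was filterByExpr with the 4 groups, counts were scaled by TMM, and all 12 libraries entered 1 fit of 4 group means, with 8 residual degrees of freedom and a common coefficient of variation of 0.442. P-values were two-sided and adjusted by Benjamini-Hochberg over the 17967 genes, with a threshold of 0.05, and the SE is the size of the log2 fold change divided by the square root of F. Comparisons were the drug in each genotype and on average, the genotypes with each treatment, and the interaction. An exact permutation test of 3 libraries against 3 has a smallest p of 0.1. Nothing in the labels says that libraries of a group came from separate animals, so p-values measure the spread between these samples, which may be technical. Same-numbered libraries of the 2 vehicle groups had deviations from their group means correlated at 0.220, 0.752 and 0.812, although the labels tie no libraries together. WT vehicle replicate 1 and Runx2+/- vehicle replicate 2, which differ in number, were correlated at 0.679. The genotype comparison with vehicle was also fitted on those 6 libraries with the replicate number as a block, an alternative chosen after seeing the data. Any 2 libraries differed in at least 21039 genes, so none was deposited 2 times.

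Alternatives were DESeq2 1.42.0, scaling by library size alone, RLE factors, limma-voom, no filter on low counts, at least 1 CPM in 3 libraries, the replicate number as a block, and each library or the trio of replicate 3 libraries that stand apart left out. The 10 genes, the wider list and the marker lists were chosen with earlier results of these data known. From the wider list, the 10 smallest p-values a comparison were named by rule and further genes that passed were added after their values were seen. The most similar genes were those with the highest Pearson correlation of log2 CPM with the mean of the 10, with Pparg or with Fabp4. Promoter windows are from RefSeq (GRCm38.p6), read in Python 3.11.15.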

Additional observations from a re-analysis of the deposited data

How the results depend on the processing

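Across 20 alternative fits and 6 comparisons the 10 genes gave 1182 values. Of these, 1092 kept their direction and their side of the threshold, 45 came to pass, 22 no longer passed and 23 changed sign. The 22 are the drug difference in WT of Cebpa and of Dgat2, each lost in 11 fits, with edgeR adjusted p up to 0.132. The number of the 10 genes that passed there was 2. It was 6 by DESeq2, 6 by library size alone, 5 without the 3 libraries that stand apart, 0 by limma-voom, without a filter or with a replicate block, and 0 to 7 with 1 library left out (7 without Runx2+/- MS-275 replicate 3). In the fit without the 3 libraries, for this and the other comparisons, only 8 of the 10 were tested, as Plin1 and Cidec did not pass its filter. Genes called in all moved from 3414 to 7223 by DESeq2, 7535 by library size alone (526 higher, 7009 lower, against 1738 and 1676), 10887 without the 3 libraries, 1 by limma-voom, 0 without a filter, 0 with the replicate block and 0 to 8480 with 1 library left out.

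In Runx2+/- the number of the 10 that passed was 3 by DESeq2, 3 (of 8 tested) without the 3 libraries and 0 to 3 with 1 left out, with 1280, 9543 and 0 to 5955 genes in all. In the mean drug difference it was 4 by DESeq2, 6 (of 8 tested) without the 3 libraries and 2 to 6 with 1 left out, and genes called in all were 4371 with the replicate block, 12616 without the 3 libraries and 3741 to 11241 with 1 left out. Between genotypes with MS-275 DESeq2 called 3 of the 10 and 702 genes, 1 gene passed without the 3 libraries and 0 to 23 with 1 left out. For the interaction DESeq2 called 2 of the 10 and 38 genes, with 0 to 1 genes on leaving 1 out. The cause of these shifts was not tested.

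Signs changed as follows, with the range over fits that left 1 library out. In Runx2+/- the drug difference ranged from -6.13 to 4.98 for Adipoq, -3.77 to 5.99 for Plin1, -2.49 to 2.18 for Plin4, -2.13 to 4.35 for Cidec and -6.87 to 3.96 for Ucp1, each lowest without MS-275 replicate 3. Without the 3 libraries it was -6.55 for Adipoq, -2.65 for Plin4 and -7.25 for Ucp1, and by limma-voom -0.097 for Plin4 and -0.25 for Ucp1. In WT, Pparg ranged from -0.65 to 0.071 and was 0.013 without the 3 libraries and 0.033 by limma-voom. Fabp4 ranged from -0.24 to 0.71 and was -0.58 by library size alone, and Lpl ranged from -0.47 to 0.10. In the mean, Lpl was -0.21 by library size alone and Ucp1 ranged from -7.30 to 0.13. Between genotypes Ucp1 ranged from -5.14 to 0.37 with vehicle, and with MS-275 Cebpa ranged from -0.24 to 0.54, with -0.28 for Cebpa and -0.044 for Pparg without the 3 libraries.

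Across all 4 groups replicate numbers did not pair samples: of 18 same-numbered pairs of libraries in different groups, 6 had deviations correlated above 0.1, the 3 pairs of vehicle libraries among them. Of 36 pairs with different numbers, 18 did. In the vehicle libraries alone, with 2 residual degrees of freedom, the replicate block gave 0 genes called by edgeR. It gave 562 at an unadjusted p under 0.05, 4 of the 10 among these. The main fit of all 12 libraries, without a block and with 8 residual degrees of freedom, gave 55 and 4. These fits differ in libraries, block and estimate of the spread, so the change cannot be credited to the block. Low counts of Adipoq, Plin1, Cidec and Ucp1 in most libraries limit what their fold changes can show, and a group left with 2 libraries is assumed to vary like the others.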
